A study of Mus musculus with 8 samples.

Results

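Runx1, Runx2 and Runx3, the 3 mouse genes of the RUNX transcription factors, and Cbfb, the gene of their common partner, were followed through 8 ATAC-seq libraries of granulosa cells. The rule takes them by name, and they are 4 of 21627 genes with coordinates on the chromosomes used. Every peak overlapping a gene, or the 50 kb on either side of it, was taken in GRCm38 (mm10). Overlapping peaks (by at least 1 bp) of the 8 lists were joined to regions, 107 of them at the 4 genes and 98245 in the genome. Runx1 had 33 regions, Runx2 had 48, Runx3 had 12 and Cbfb had 14.

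RUNX proteins bind DNA through the Runt domain, which recognises the core TGTGGT, and each of the Runx genes is known to be transcribed from a distal and a proximal promoter. CBF-beta, the product of Cbfb, does not bind DNA itself but pairs with the Runt domain and raises its affinity and stability. In the ovary, Runx1 and Runx2 are known to be induced in granulosa cells, the somatic cells around the oocyte, by the surge of luteinising hormone that triggers ovulation, and loss of Cbfb or of Runx1 and Runx2 from these cells disturbs ovulation and the corpus luteum.

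ATAC-seq marks open chromatin by letting the transposase Tn5 cut and tag accessible DNA. All mice were 21 days old and had received 5 IU of eCG (also called PMSG), a gonadotropin that makes follicles grow, 46 h earlier; those given 5 IU of hCG, which acts on the receptor for luteinising hormone, were killed 6 h after it. In the LH experiment, wildtype CBA x C57BL/6 F1 mice gave 2 libraries with the title hCG and 2 with the title PMSG. The PR experiment compared 2 wildtype (WT) with 2 progesterone receptor knockout (KO) libraries, all of the strain C.129S7(B6)-Pgrtm1Bwo/OmcJ and, per the design text, all taken after hCG. The labels name no cell type to which the knockout is restricted, and each library pooled granulosa cells of 2 to 3 mice. For the LH libraries the time tags go against the titles: those titled hCG carry 0 h after hCG with a peri-ovulatory source name, and those titled PMSG carry 6 h with a pre-ovulatory one. Titles were followed, so every direction below holds for the libraries as titled. The 4 PR libraries carry 6 h beside a pre-ovulatory source name.

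The lists held between 55654 (KO replicate 2) and 84313 (WT replicate 2) intervals, covering 29.8 to 43.9 Mb, and gave no read counts, so depth is unknown. WT replicate 2 stood apart: 8.29% of its regions were held by no other library, against 0.481% to 3.79% in the rest, and of its 99 regions at the 4 genes 18 were its alone. WT replicate 1 held 2 such regions at these genes and the other libraries none. Of 8 granulosa markers 6 had a listed start. At Fshr, Foxl2 and Gja1 it lay in a peak of all 8 libraries, that of Cyp19a1 in 7, and those of Inha and Nr5a2 in none. Of 7 leukocyte markers 3 had a listed start: Ptprc and Laptm5 were in no peak and Coro1a was in a peak of all 8 libraries. Of 5 endothelial markers 3 had one: Tek and Emcn were in none and Kdr was in all 8. The listed starts of Insl3 (theca), Zp3 and Bmp15 (oocyte) were in none. Of 3 smooth muscle markers 2 had one: Acta2 was in a peak of all 8 libraries and Des in 5.

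The distal promoters of the 3 Runx genes are shown first because they share a stretch that the genes were not chosen for. In RefSeq's promoter windows (GRCm38.p6, 250 bases before and 50 after each listed start, 300 in all), the distal window of Runx1, the only listed window of Runx2 and the distal window of Runx3 each held the RUNX core more than once. The core, TGTGGT or its reverse complement ACCACA, was found 2, 3 and 2 times. It was found 0 times at the proximal starts of Runx1 and Runx3 and at Cbfb. Of 32851 promoters, 16.8% held it once or more on either strand and 1.81% held it 2 or more times. In all 3 distal windows a pair of cores stood with the same spacing, ACCACAGAACCACA, a word chosen after these sequences were seen. The 26 bases around it, written along the gene with the cores in capitals, are these.

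Runx1, chr16:92826027-92826052, minus strand: taaacaACCACAgaACCACAagttgg

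Runx2, chr17:44814585-44814610, minus strand: caaacaACCACAgaACCACAagtgcg

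Runx3, chr4:135120505-135120530, plus strand: ccctcaACCACAgaACCACAaggcca

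The pair occurred in 4 of the 32851 promoters. Beside the 3 Runx genes it was that of Gm16225, a non-coding gene whose window overlaps the distal one of Runx3 on the other strand. Counting the start base as 0, the pair lay after the start in Runx1 (bases 28 to 41) and Runx2 (23 to 36), and before it in Runx3 (bases -134 to -121). The AP-1 word TGANTCA, the inverted repeat ACANNNTGT read by steroid receptors and the NR5A word CAAGGTCA were in none of the members' windows, against 7.81%, 6.85% and 1.56% of all promoters with either strand counted. A match or a missing word is a description of these letters and not of binding.

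The chromatin over these 3 windows differed. The pair of Runx2 lay in a peak of all 8 libraries, that of Runx1 in a peak of 5 libraries, and that of Runx3 in a peak of none. The distal promoter of Runx1, where some libraries held a peak and others none, reads as follows over the 250 bases before its start (chr16:92826075-92826324, minus strand, no RUNX core in it).

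Runx1 distal promoter: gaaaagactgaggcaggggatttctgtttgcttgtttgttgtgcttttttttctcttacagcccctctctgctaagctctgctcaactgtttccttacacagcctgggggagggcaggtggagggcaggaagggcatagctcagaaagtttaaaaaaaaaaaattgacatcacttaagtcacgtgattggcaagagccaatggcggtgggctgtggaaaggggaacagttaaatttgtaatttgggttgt

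The same stretch of Runx3, where no library held a peak, holds its pair of cores (chr4:135120395-135120644, plus strand, cores in capitals).

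Runx3 distal promoter: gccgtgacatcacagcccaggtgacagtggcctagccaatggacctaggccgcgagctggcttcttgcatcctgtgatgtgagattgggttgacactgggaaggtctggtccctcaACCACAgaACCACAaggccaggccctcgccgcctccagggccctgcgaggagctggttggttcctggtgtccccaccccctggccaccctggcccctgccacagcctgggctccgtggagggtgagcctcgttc

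Between the hCG and PMSG libraries, with all peaks taken, the 3 Runx genes had more regions held in hCG alone than in PMSG alone, and Cbfb had the reverse. A region is called hCG-only when both hCG libraries and neither PMSG library held a peak in it, and PMSG-only, WT-only and KO-only are used likewise. Of 77 regions held in the LH experiment, 21 were hCG-only and 10 PMSG-only, against 17.6% and 10.3% of all 80889 regions. Runx2 had 13 hCG-only and 2 PMSG-only regions of 29, Runx1 had 6 and 3 of 26, and Runx3 had 2 and 0 of 8. Cbfb had 0 hCG-only and 5 PMSG-only regions of 14. Over all 21627 genes, 41.4% likewise had more hCG-only than PMSG-only regions, and 15.1% had fewer. A list with more peaks yields more such regions, so the counts were also taken with the same number of peaks, 55654, from each library. Chosen by the caller's fold, these gave 13 hCG-only and 13 PMSG-only regions of 67 (genome 15.3% and 13.4%). Chosen by its q-value, they gave 17 and 10 of 75 (genome 15.7% and 13.5%). Runx2 then kept the larger count of hCG-only regions, with 10 by fold and 12 by q-value against 3 and 2 PMSG-only, and Cbfb had 0 hCG-only against 5 and 4 PMSG-only. Runx1 changed side by fold, to 2 against 4, and was even by q-value at 4 and 4. Runx3 had 1 hCG-only and 1 PMSG-only region by fold and 1 and 0 by q-value. With only the 20000 peaks of highest fold in each list, the order between the genes did not hold: Runx2 then had 1 hCG-only and 2 PMSG-only regions, with 2 and 0 at Cbfb, 1 and 1 at Runx1 and 0 and 0 at Runx3. Single regions were not tested, since an exact permutation of 2 against 2 libraries could not pass. Windows of other cell types' markers also held more hCG-only than PMSG-only regions, as did the genome as a whole (17.6% and 10.3%). The counts were 12 and 5 of 45 for 5 endothelial markers, 9 and 3 of 56 for 7 leukocyte markers, 6 and 1 of 24 for 2 theca markers, 5 and 1 of 31 for 3 smooth muscle markers and 4 and 1 of 33 for 4 oocyte markers. Those of the 8 granulosa markers held 23 and 18 of 126. The hCG-only shares were 26.7% (endothelial), 25.0% (theca), 16.1% (leukocyte), 16.1% (smooth muscle), 12.1% (oocyte) and 18.3% (granulosa). With the same number of peaks by fold the counts were 11 and 5 of 42 (endothelial), 9 and 5 of 55 (leukocyte), 2 and 3 of 21 (theca), 3 and 1 of 28 (smooth muscle), 4 and 4 of 33 (oocyte) and 11 and 21 of 92 (granulosa). The start of Acta2, a smooth muscle gene, ranked 66.6 and 68.3 in hCG and 39.2 and 38.2 in PMSG. That of the endothelial marker Kdr went the other way, at 70.5 and 70.6 in hCG and 77.4 and 72.9 in PMSG. That of the leukocyte marker Coro1a ranked 71.0 and 64.9 in hCG and 60.3 and 64.6 in PMSG. The part of these cell types in the result was not tested.

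Runx2, best known as the master regulator of bone formation, had the most hCG-only regions of the family. The libraries titled hCG held 24 and 24 peaks in its window, those titled PMSG 14 and 13, the WT libraries 36 and 48 and the KO libraries 27 and 26. Both PMSG libraries were thus below every other library. Only 16 of 21627 genes had 13 or more hCG-only regions, with a median of 1 over all genes and 20 at most (counts not scaled by the length of a window, and the gene spans 319 kb). Of the 13, 11 lay inside the gene and 2 in the flanks. The peaks of each library along the gene are drawn in the map of Runx2.

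**Figure D1:**
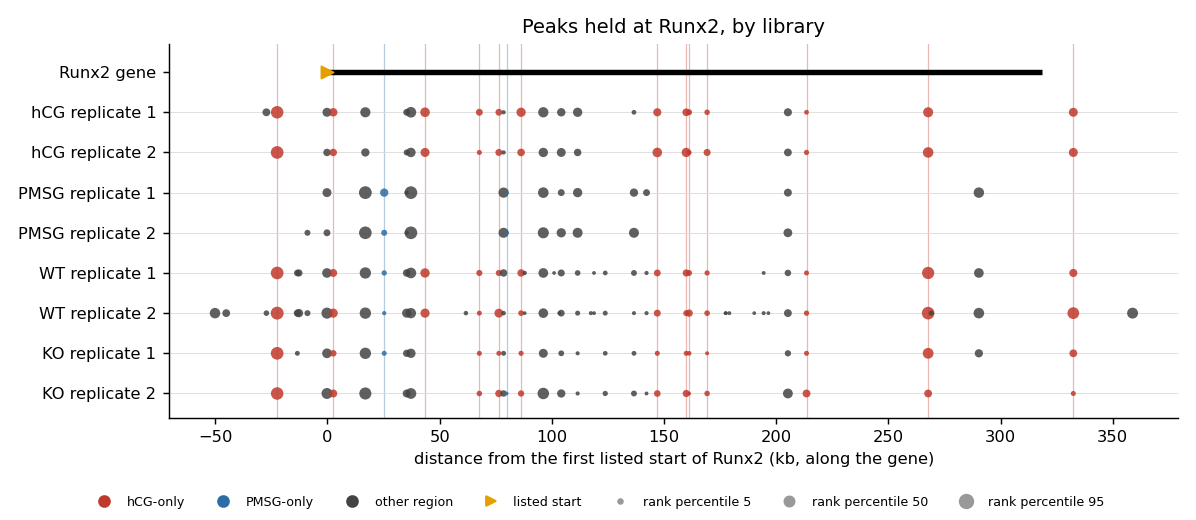
Peaks of each library along Runx2, in kb from the first listed start in the direction of the gene, with point size growing with the rank of the peak's fold in its own list. Red marks hCG-only and blue PMSG-only regions. The 13 red columns are empty in both PMSG rows, and 12 of them are filled in both KO rows.

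By fold, the leading hCG-only region of the family lay at -22.4 kb from the listed start of Runx2 (chr17:44836725-44837427), inside Supt3, which overlaps Runx2 and encodes a subunit of a transcription co-activator complex, so its position does not say which gene it serves. The annotation used gives gene ends and starts only, and exons and introns were not told apart. The caller's fold over local background there was 12.2 and 12.9 in the hCG libraries, 12.8 and 14.6 in WT and 12.6 and 12.0 in KO, and neither PMSG library held a peak. Folds of different lists are not on one scale, and ranks within each list were used instead, with 100 as the highest fold. The region ranked 80.1 and 82.5 in hCG, 82.2 and 85.7 in WT and 82.5 and 80.0 in KO. It was near the same place in the 6 lists that held it. Of all 14212 hCG-only regions, 7.52% ranked as high or higher by their mean over the hCG libraries. By q-value, the hCG-only region of Runx2 at +2.6 kb stood above it, with a mean rank of 77.5 in the hCG libraries against 72.5.

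Further along Runx2, the region at +267.7 kb ranked 49.1 and 55.0 in hCG, 76.2 and 81.8 in WT and 57.7 and 27.1 in KO. The region at +43.5 kb (chr17:44770977-44771300) ranked 44.3 and 38.6 in hCG and 41.4 and 39.8 in WT, and it was absent from both PMSG and both KO libraries, which made it hCG-only and WT-only at once. It was the only one of the 13 that neither KO library held. The other hCG-only regions of Runx2 had mean ranks from 6.80 to 37.9. The median over the 13 was 33.0, and the median was 38.0 over all hCG-only regions of the genome. Ranked by q-value the order turned, with a median of 42.0 over the 13 and 33.7 over the genome. The PMSG-only regions, at +25.3 kb and +79.9 kb, ranked 31.5 and 13.4, and 1.02 and 3.27, in the PMSG libraries.

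Among the Runx2 regions held by all 8 libraries, the 2 strongest by fold away from the start ranked lower in hCG by fold, while the start ranked alike by fold and higher in hCG by q-value. The listed start (chr17:44814193-44815381) had ranks of 37.9 and 23.7 in hCG, 37.7 and 19.5 in PMSG, 44.6 and 61.3 in WT and 45.1 and 59.6 in KO, and the hCG and PMSG ranks overlapped. By q-value the start ranked 81.6 and 76.0 in hCG and 57.6 and 41.2 in PMSG, with no overlap. At +16.9 kb the ranks by fold were 50.5 and 31.3 in hCG against 83.8 and 81.7 in PMSG, with 64.3 and 64.9 in WT and 64.8 and 74.7 in KO. At +37.2 kb, which is also the start of Supt3, they were 55.9 and 42.9 against 82.4 and 82.3, with 56.0 and 51.8 in WT and 41.4 and 57.5 in KO. Of the 9 Runx2 regions held by all 4 LH libraries, 1 ranked higher in both hCG than in both PMSG libraries and 4 ranked lower, against 32.4% and 39.4% of the 40780 such regions in the genome. Ranked by q-value, 5 of the 9 were higher in both hCG libraries and 3 lower, against 38.2% and 36.4% in the genome, so the order of the shared regions as a set depends on the measure.

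Runx1, known for its part in blood formation, had its hCG-only regions of highest rank at its distal end. Its 2 listed starts lie 129 kb apart. The distal start (chr16:92825907-92826201) had a peak of fold 4.69 and 5.09 in the hCG libraries, none in either PMSG library, 5.70 and 6.21 in WT, 5.01 in KO replicate 1 and none in KO replicate 2. These are low folds, with ranks of 12.9 and 13.9 in hCG, 29.3 and 35.0 in WT and 15.4 in KO replicate 1. Over the genome, 1.36% of 21044 listed starts lay in a peak of both hCG and neither PMSG library. With the same number of peaks from each list, the distal start was no longer hCG-only when they were chosen by fold and stayed hCG-only when they were chosen by q-value. The start of Des, a smooth muscle marker, was in a peak of the same 5 libraries, with ranks of 48.1 and 68.3 in hCG, 62.1 and 57.4 in WT and 53.7 in KO replicate 1; its part in the result was not tested. In bulk libraries, more cells of a type and more open chromatin in each cell cannot be told apart.

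The proximal start of Runx1 (chr16:92696625-92698922, +128.3 kb) was in a peak of all 8 libraries. Peaks covered 2238 and 2173 bp of it in hCG, 1977 and 1808 bp in PMSG, 2077 and 2291 bp in WT and 2189 and 2168 bp in KO. In both PMSG libraries and in WT replicate 1 this is the sum of 2 separate peaks, and in the others it is 1 peak. Its rank by fold was 43.4 and 33.4 in hCG, 59.0 and 55.5 in PMSG, 51.2 and 64.4 in WT and 42.3 and 72.8 in KO. By q-value it ranked between 91.7 and 98.0 in every library. The proximal start was thus broad and shared, while the distal one was narrow (213 to 294 bp where present) and missing from PMSG.

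Close to the distal start, 2 further hCG-only regions of Runx1 were held by all 4 PR libraries. The region at -16.2 kb (chr16:92842053-92842571) ranked 65.5 and 56.3 in hCG, 50.3 and 67.6 in WT and 49.7 and 9.95 in KO. The region at +2.0 kb (chr16:92823542-92824653) ranked 39.9 and 37.5 in hCG, 47.2 and 52.2 in WT and 34.2 and 31.3 in KO. Both stayed hCG-only with the same number of peaks chosen by fold. The other 3 hCG-only regions, past the end of the gene or at it, had mean ranks of 2.72 to 6.90. Among them, the region at +225.7 kb was also WT-only, with ranks of 7.14 and 6.67 in hCG and 4.05 and 6.79 in WT.

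**Figure D2:**
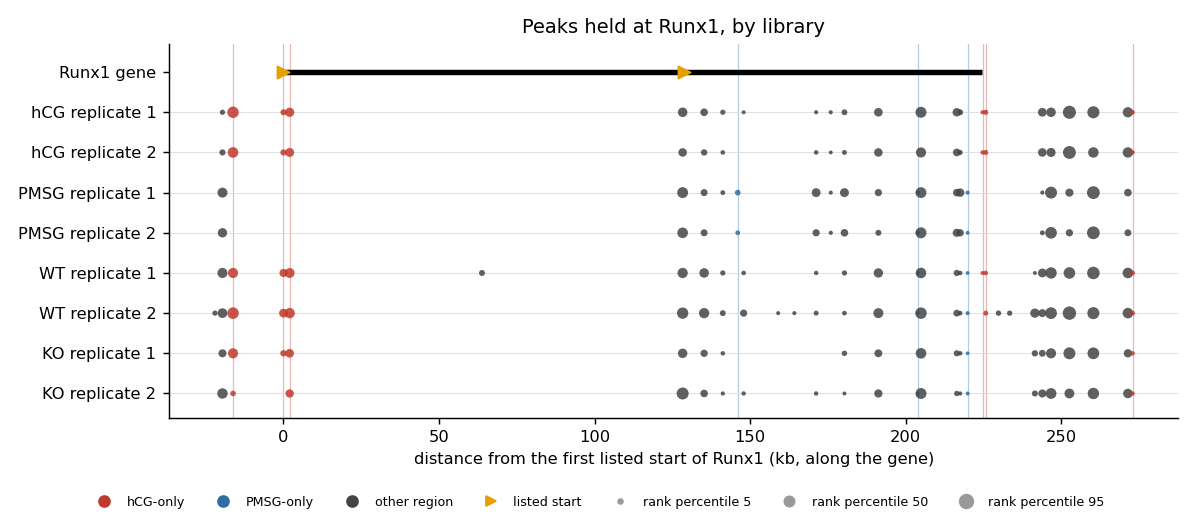
Peaks of each library along Runx1, in kb from the distal start in the direction of the gene, with the 2 listed starts as triangles and point size growing with the rank by fold. The red columns at the left end, at -16.2, 0.0 and +2.0 kb, are empty in both PMSG rows, while the proximal start at +128.3 kb is filled in all 8.

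The 3 PMSG-only regions of Runx1 ranked low by fold. They lay inside the gene at +146.0, +203.9 and +219.9 kb, with ranks of 10.9 and 5.48, 3.14 and 4.09, and 2.07 and 1.21 in the PMSG libraries. By fold, the 2 regions with the highest mean rank among those of Runx1 held by all 8 libraries lay beyond its 3' end. By q-value both ranked below the proximal start in every library. At +252.6 kb the ranks were 88.4 and 85.5 in hCG, 29.8 and 22.1 in PMSG, 67.4 and 92.8 in WT and 72.5 and 47.0 in KO, so both hCG libraries stood far above both PMSG libraries. At +260.3 kb they were 74.5 and 54.0 in hCG against 83.9 and 83.1 in PMSG, with 80.3 and 73.8 in WT and 70.0 and 65.3 in KO, the opposite order.

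Runx3, known from T cells and sensory neurons, showed the fewest regions of the 3. Its distal start was in no peak of any library. Its second listed start, 31.9 kb further on (chr4:135152020-135153037), was in a peak of all 8, with ranks of 41.0 and 40.6 in hCG, 30.6 and 22.9 in PMSG, 47.6 and 28.2 in WT and 23.6 and 14.9 in KO. The hCG libraries were above the PMSG libraries, which 32.4% of shared regions in the genome also showed. The WT libraries were above the KO libraries, as were 44.9% of the 48711 regions shared by the PR libraries, with 1.98% in the other direction. The ranks were not tested, and an exact permutation of 2 against 2 libraries could not pass.

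Both hCG-only regions of Runx3 lay in its flanks and were held by all 4 PR libraries. The one at -6.0 kb (chr4:135114359-135114846) ranked 15.2 and 30.8 in hCG, 53.2 and 59.6 in WT and 30.7 and 47.8 in KO. The one at +105.7 kb (chr4:135226198-135226522), inside the neighbouring gene Clic4, ranked 35.3 and 67.6 in hCG, 28.3 and 69.4 in WT and 37.1 and 49.5 in KO. With the same number of peaks from each list, the region at +105.7 kb stayed hCG-only by fold and by q-value, and the one at -6.0 kb was hCG-only under neither choice. The strongest shared regions by fold, at +54.9 and +85.7 kb, ranked between 22.1 and 64.4 over the 8 libraries.

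**Figure D3:**
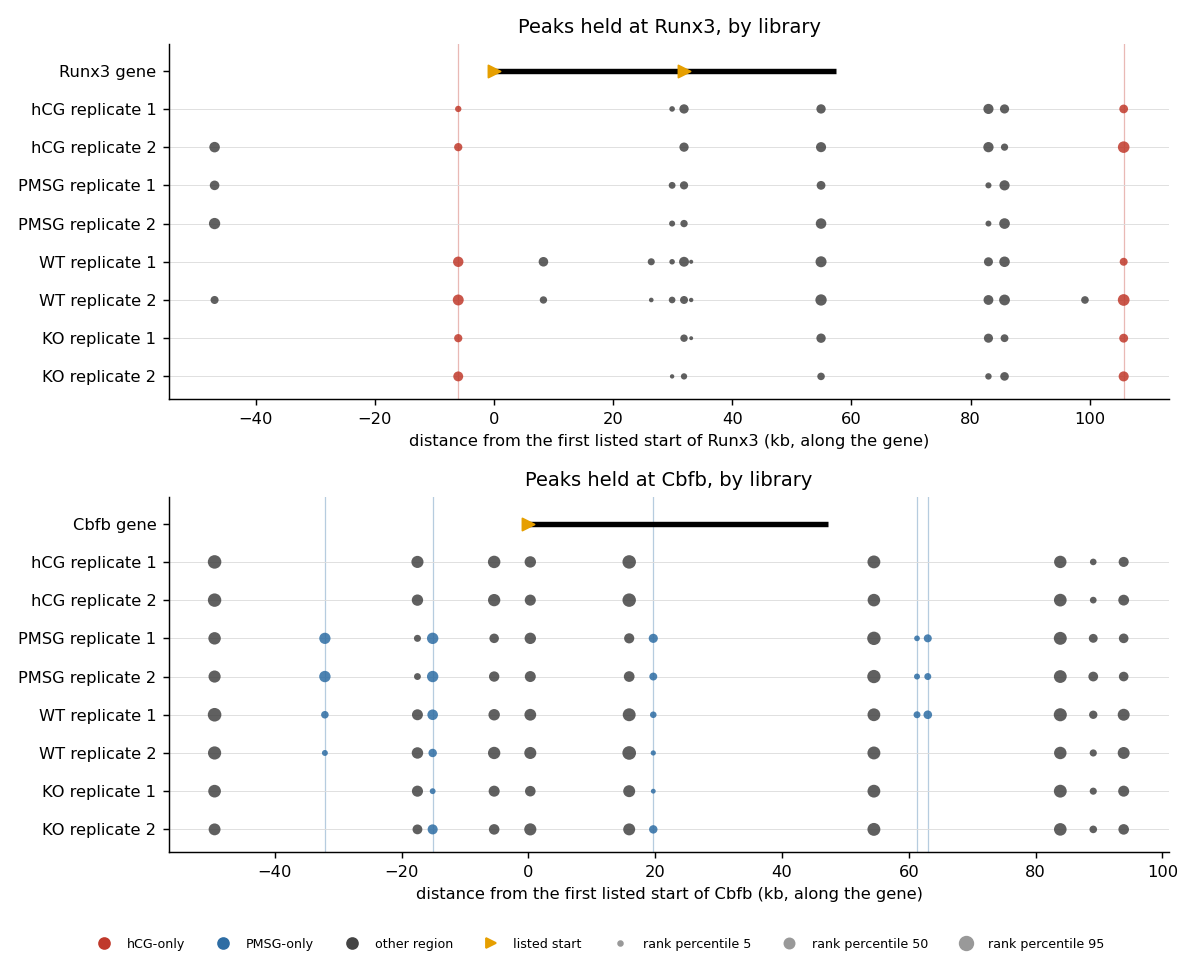
Peaks of each library along Runx3 (top) and Cbfb (bottom), in kb from the first listed start in the direction of the gene, with point size growing with the rank by fold. The distal start of Runx3 at 0 has no point in any row. The 5 blue columns of Cbfb are empty in both hCG rows.

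Cbfb, whose product every RUNX protein pairs with, had in its window the largest share of regions held by every library. Of its 14 regions, 3 lay in the gene and 11 in the flanks, several of them inside other genes. Of the 14, 9 (64.3%) were held by all 8 libraries, against 13 of 33 at Runx1, 9 of 48 at Runx2, 4 of 12 at Runx3 and 37.9% of all regions. Its start (chr8:105170131-105171863) ranked 65.5 and 61.5 in hCG, 65.3 and 60.2 in PMSG, 70.2 and 73.9 in WT and 55.2 and 74.9 in KO. By fold, the hCG and PMSG ranks at the start overlapped, and so did those of WT and KO.

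Away from the start, Cbfb held fewer regions in the libraries titled hCG, with 9 and 9 peaks against 14 and 14 in PMSG, 14 and 12 in WT and 11 and 11 in KO. The PMSG-only region at -15.1 kb (chr8:105155277-105155966) ranked 65.2 and 64.9 in PMSG, 55.4 and 32.5 in WT and 11.9 and 49.3 in KO. The one at -32.1 kb, inside the carboxylesterase gene Ces4a, ranked 63.5 and 65.1 in PMSG and 24.7 and 12.5 in WT, and neither KO library held it, so it was also WT-only. The one at +19.7 kb, inside Cbfb, ranked 39.3 and 27.8 in PMSG, 16.8 and 7.91 in WT and 5.89 and 32.3 in KO. The other 2, at +61.3 and +63.0 kb inside D230025D16Rik, were held by both PMSG libraries and WT replicate 1 only. Of the 5 PMSG-only regions, 1 thus lay in the gene and 4 in the flanks. Of 21627 genes, 166 (0.768%) had 5 or more PMSG-only regions.

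Several shared regions of Cbfb ranked higher in hCG, in the other direction from the regions held in PMSG alone. Of the 9 Cbfb regions held by all 4 LH libraries, 5 ranked higher in both hCG libraries by fold and 3 lower, against 32.4% and 39.4% in the genome, and by q-value 5 were higher and 1 lower (genome 38.2% and 36.4%). Of the 5, those at +15.9 and -17.5 kb were singled out after their values were seen. The region at +15.9 kb inside Cbfb (chr8:105186277-105186964) ranked 94.1 and 93.7 in hCG, 50.3 and 57.0 in PMSG, 85.9 and 96.5 in WT and 72.5 and 72.5 in KO. Its peak was 688 and 505 bp wide in hCG against 295 and 298 bp in PMSG, and 64.2% of the shared regions in the genome were also wider in both hCG libraries and 11.8% narrower. The region at -17.5 kb (chr8:105152827-105153461) ranked 74.6 and 64.7 in hCG, 20.3 and 19.1 in PMSG, 59.9 and 66.0 in WT and 61.8 and 46.8 in KO. The strongest shared regions by fold, at +54.5 kb (the start of D230025D16Rik) and -49.5 kb, ranked 71.4 or more by fold in every library.

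**Figure D4:**
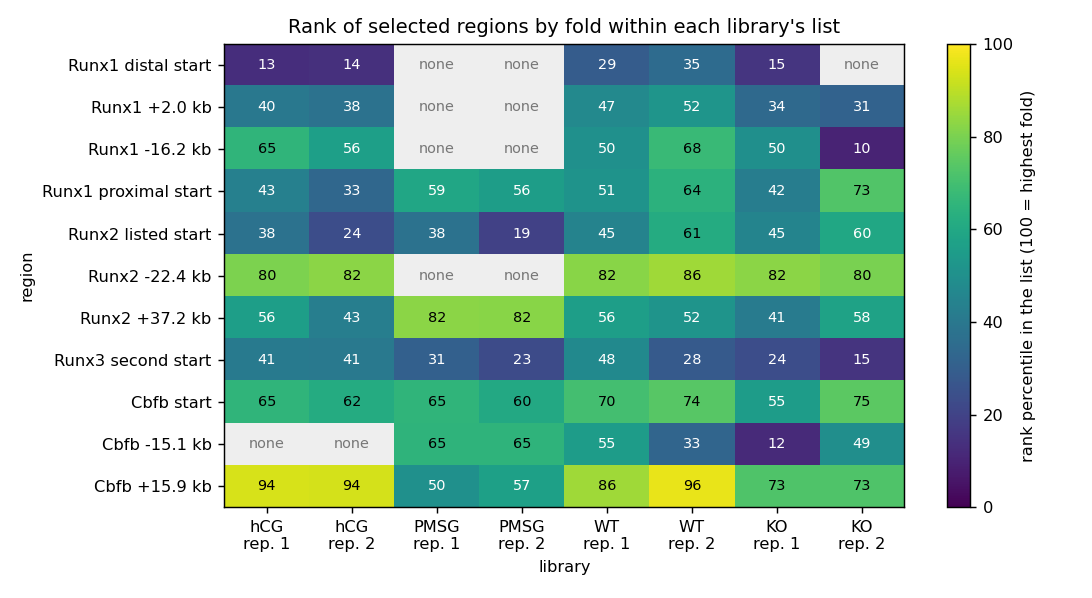
Rank by fold within each library's own list (0 to 100, 100 the highest) for selected regions of the 4 genes, 1 row per region and 1 column per library, with "none" where the library held no peak. The row Runx2 -22.4 kb lies at 80.0 or above in 6 libraries and is empty in both PMSG libraries, and the row Cbfb +15.9 kb is higher in both hCG than in both PMSG libraries.

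The length of sequence under peaks in each window, scaled to the covered length of the whole list, gave the comparison that does not depend on merging. For Runx2 it was 355 and 326 bp per Mb in hCG, 215 and 214 in PMSG, 393 and 476 in WT and 377 and 416 in KO. The hCG mean was 340.2 ± 20.5 and the PMSG mean 214 ± 1.19 (SD, n = 2 each), a ratio of 1.59. Over 18726 genes the median ratio was 0.99, and 4.17% of genes had a ratio as high as that of Runx2. The hCG libraries were above both PMSG libraries, which 35.0% of genes also showed, while 39.2% showed the reverse.

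For Runx1 the covered length was 397 and 407 bp per Mb in hCG and 348 and 340 in PMSG, with means of 402 ± 7.47 and 344 ± 5.91 (SD, n = 2 each) and a ratio of 1.17. For Cbfb it was 194 and 185 bp per Mb in hCG and 255 and 254 in PMSG, with means of 189 ± 6.06 and 254 ± 0.390 (SD, n = 2 each) and a ratio of 0.744. For Runx3 it was 84.4 and 93.6 against 89.0 and 85.0, a ratio of 1.02. The groups did not overlap at Runx1, Runx2 and Cbfb and overlapped at Runx3, while over the 18726 genes 74.2% did not overlap, so 3 of 4 is near the genome share. Of those genes, 20.4% had a ratio as high as that of Runx1 and 42.5% one as high as that of Runx3, and 9.71% had one as low as that of Cbfb. An exact permutation test of 2 against 2 libraries, two-sided, cannot go below p = 0.33. It gave 0.33 for Runx1, Runx2 and Cbfb and 1.0 for Runx3, or 0.667 and 1.0 after Benjamini-Hochberg adjustment over the 8 tests of both experiments, so none passed. Restricted to the 20000 peaks of highest fold in each list, the difference turned round for Runx1, Runx2 and Cbfb (-29.8, -75.8 and 105 bp per Mb, hCG minus PMSG). At Runx1 the difference of 58.1 bp per Mb also fell to 2.01 with the same number of peaks by fold (exact permutation p = 1.0), to 32.3 by q-value and to 5.32 in the gene body (p = 0.667), and by fold and in the gene body the groups overlapped. At Runx2 the difference of 126 fell to 75.4 with the same number by fold, and at Cbfb the difference of -65.0 moved to -10.6 in the gene body, both with groups that did not overlap. Unscaled, the peaks at Cbfb covered 7549 and 7062 bp in hCG against 7597 and 7587 bp in PMSG, a mean difference of -286.5 bp. At Runx3 the unscaled lengths were 3293 and 3574 bp in hCG and 2656 and 2539 bp in PMSG, which did not overlap. The scaled Runx3 difference of 2.04 moved to 16.9 at -log10 q of 20 or more, 10.4 with 100 kb flanks and -9.10 in the gene body, again without overlap.

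**Figure D5:**
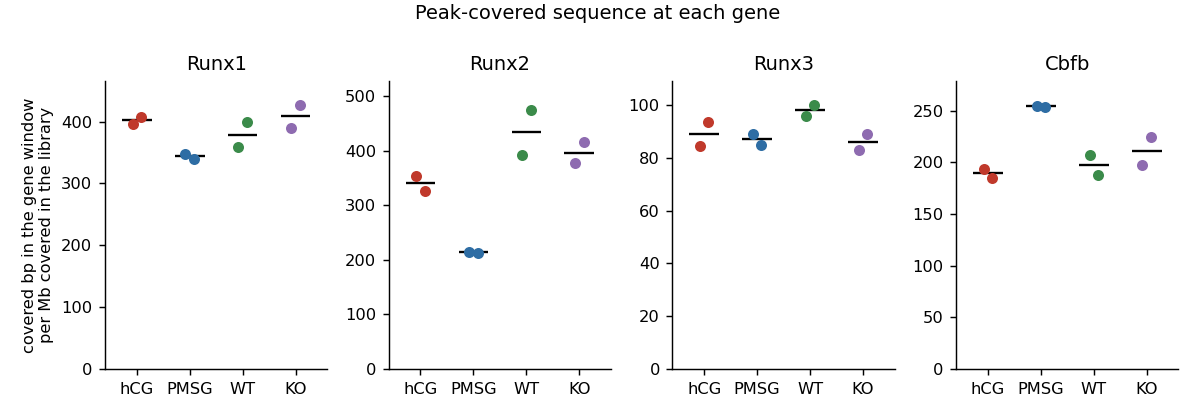
Peak-covered sequence in the window of each gene (bp per Mb covered in the library), 1 point per library and a line at the mean of each group, with each axis from 0. At Runx2 both hCG points lie above both PMSG points, and at Cbfb both lie below them.

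Between WT and KO, the direction of the regions of the 4 genes held by 1 group alone depended on which peaks were taken. Of 105 regions held in the PR experiment, 9 were WT-only and 0 KO-only, against 12.1% and 0.0802% of 91017 regions in the genome. These were 1 of 31 at Runx1, 5 of 48 at Runx2, 2 of 12 at Runx3 and 1 of 14 at Cbfb. The KO lists were the shorter, and with the same number of peaks chosen by fold the counts became 1 WT-only and 12 KO-only of 75 (genome 4.26% and 4.15%), 9 of the latter at Runx2. Of 21627 genes, 2 had 9 or more KO-only regions under that choice. Chosen by q-value they became 1 and 1 of 70 (genome 2.78% and 2.49%). Leaving out 1 library of a group moved the WT-only count to 30 with WT replicate 2 alone and to 14 with WT replicate 1 alone, and it was 14 with either KO library left out. A call on fewer libraries asks less, so this count could only stay or rise. Under each choice with the same number of peaks, 1 WT-only region was left, at Runx2. The presence of peaks at Pgr was not used as a check of the genotype.

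The WT-only regions of Runx2 other than +43.5 kb were weak or narrow. The one at -12.7 kb ranked 21.4 and 31.8 in WT, the one at +87.9 kb ranked 3.35 and 0.537, and the remaining 2 had mean ranks of 0.840 and 1.5. At Runx3, both WT-only regions lay inside the gene. The one at +8.3 kb ranked 44.0 and 23.1 and the one at +26.4 kb ranked 20.4 and 4.77 in WT.

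With all peaks taken, scaled covered length overlapped between WT and KO at 3 of the 4 genes, against 46.3% of 18788 genes. The means were 379 ± 27.8 in WT and 408 ± 25.8 bp per Mb in KO at Runx1, 434 ± 58.9 and 397 ± 27.8 at Runx2, and 197 ± 13.5 and 211 ± 19.2 at Cbfb (SD, n = 2 each). At Runx3 the WT libraries, at 95.9 and 100.1 bp per Mb, were above the KO libraries, at 82.9 and 88.9, a ratio of 1.14. Over all genes 17.3% were likewise higher in both WT than in both KO libraries and 36.4% were lower. The exact permutation test gave p = 0.33 for Runx3, 0.667 after adjustment over the 8 tests, and 0.667 for the other 3 genes, or 0.762 adjusted. At Runx3 the difference of 12.1 bp per Mb (WT minus KO) turned to -2.16 with the same number of peaks by fold and to -4.55 with 100 kb flanks. It was 0 with the 20000 peaks of highest fold. At Runx2 the difference of 37.4 turned to -4.27 bp per Mb (WT minus KO) without WT replicate 2. With the same number of peaks by fold it turned to -202, and the groups did not overlap (exact permutation p = 0.33). At Runx1 the difference of -29.6 moved to -88.9 with the same number of peaks by fold, -96.7 with the 20000 peaks of highest fold and -48.8 at -log10 q of 20 or more, and in these 3 settings the groups did not overlap (exact permutation p = 0.33). Leaving out a library moved it to between -49.3 (without WT replicate 2) and -9.93 (without WT replicate 1), and without KO replicate 1 and KO replicate 2 it was -47.9 and -11.3. The Cbfb difference of -13.8 moved to between -27.4 (without KO replicate 1) and -0.289 (without KO replicate 2), and without WT replicate 1 and WT replicate 2 it was -23.4 and -4.30.

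The PR libraries gave a second look at the LH regions, since they come from other animals of another strain. Whether they held a region did not enter those calls, but their peaks helped to set the edges of the merged regions. With regions merged within the LH experiment alone, the counts were also 21 hCG-only and 10 PMSG-only. Of the 21 hCG-only regions, 20 were held by both WT libraries, as were 78.5% of hCG-only regions in the genome. Both KO libraries held 17 of them (genome 41.5%) and neither held 3 (genome 34.2%). At Runx2 both KO libraries held 12 of 13, at Runx3 2 of 2 and at Runx1 3 of 6. Of the 10 PMSG-only regions, both WT libraries held 6 (genome 43.0%) and both KO libraries 3 (genome 14.8%). With the same number of peaks, both WT libraries held 0 of 13 PMSG-only regions by fold (genome 13.6%) and 1 of 10 by q-value (genome 14.8%), and both KO libraries 5 of 13 (genome 22.2%) and 3 of 10 (genome 21.6%). With the same number of peaks by q-value, both WT libraries held 14 of 17 hCG-only regions (genome 60.1%) and both KO libraries 14 of 17 (genome 48.9%). By fold, both WT libraries held 5 of 13 (genome 59.8%) and both KO libraries 12 of 13 (genome 46.2%), so the share in WT depends on that choice. Most hCG-only regions of the Runx genes were thus also peaks of cells without the progesterone receptor, and whether they were weaker there cannot be read from peak lists.

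The proteins that work with RUNX factors were followed as a list of 16 genes: the Groucho co-repressors Tle1, Tle3 and Tle4, the kinase gene Hipk2, the co-activators Yap1, Wwtr1, Ep300 and Kat6a, the co-repressors Hdac4 and Sin3a, and the transcription factors Ets1, Smad3, Smad4, Cebpb, Fos and Jun. In their windows 54 regions were hCG-only and 10 PMSG-only of 217 (24.9% and 4.61%, against 17.6% and 10.3% in the genome). Of the 16 genes, 13 had more hCG-only than PMSG-only regions and 1, Yap1, had fewer, against 41.4% and 15.1% of all 21627 genes (windows grow with gene length, and these shares are not matched for it). Hdac4 had 11 hCG-only and 2 PMSG-only regions, Smad3 had 8 and 0, and Tle1 and Tle3 had 5 and 2 and 5 and 1. With the same number of peaks by fold the list had 40 hCG-only and 25 PMSG-only regions of 198 (20.2% and 12.6%, against 15.3% and 13.4% in the genome). Hdac4 then had 9 and 4, Smad3 had 4 and 3, Tle1 had 4 and 3 and Tle3 had 3 and 3. Under that choice Fos (2 and 3) and Sin3a (0 and 2) joined Yap1 (0 and 1) in having fewer hCG-only regions. All 13 genes of the list with a listed start had it in a peak of all 8 libraries, against 53.8% of the 21044 listed starts. In the PR experiment 38 regions of the list were WT-only and 0 KO-only of 256 (14.8% and 0%, against 12.1% and 0.0802% in the genome), and 8 and 10 of 180 with the same number of peaks by fold (4.44% and 5.56%, against 4.26% and 4.15%).

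A list of 10 genes known to depend on RUNX factors in granulosa cells around ovulation was followed in the same way. In their windows 16 regions were hCG-only and 7 PMSG-only of 105 (15.2% and 6.67%, against 17.6% and 10.3% in the genome), and 11 and 15 of 85 with the same number of peaks by fold (12.9% and 17.6%, against 15.3% and 13.4%). In the PR experiment 21 were WT-only and 0 KO-only of 122 (17.2% and 0%, against 12.1% and 0.0802%). With the same number of peaks by fold these became 3 and 13 of 91 (3.30% and 14.3%, against 4.26% and 4.15%), with 7 of the KO-only regions at Abhd2. Hapln1, which links hyaluronan in the expanding cumulus matrix, had 4 hCG-only and 0 PMSG-only of 8 regions and no peak at its start. Ptgs2, the prostaglandin synthase needed for ovulation, had 1 hCG-only region of 9 and a start in a peak of all 8 libraries. Mmp13 had no region in any library, and the starts of Fabp6 and Abcb1a were in no peak.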

How the data were processed

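Size-selected Tn5-tagmented libraries were sequenced paired-end, and the authors deposited 1 peak list per library. The submitters' processing notes name Bowtie2, MACS2 and mm10; versions are not given in the sources used here. Peak names in the PR lists mention filtering and marked duplicates and those in the LH lists do not. Per the file format, the deposited lists hold a fold over background (a ratio, used only for ranks within a list), -log10 p and -log10 q (every q at least 10 on that scale) and an integer score, which was not used.

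Summits sharing an interval were collapsed to the best fold, chromosomes 1 to 19 and X were kept, and intervals of the 8 lists overlapping by 1 bp were merged with Python 3.11.15, numpy 2.4.6 and pandas 2.3.3. Covered length was compared by exact permutation (8 tests, Benjamini-Hochberg), and the code was tested on simulated data. Gene ends, starts and promoter sequences come from RefSeq, GRCm38.p6; all 4 genes and all listed genes matched. Regions named singly were those at starts, the 3 of best mean rank per call and gene, the 2 of best rank away from the start, and those called in both experiments. Genes, lists and rules were chosen with earlier results of these data known. Same-numbered replicates showed deviations correlated at 0.0702 (hCG and PMSG) and 0.0723 (WT and KO) over genes and were not paired. With 2 pooled replicates a group, p-values measure only the spread between these libraries.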

Additional observations from a re-analysis of the deposited data

How the results depend on the processing

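Counts over the 4 genes were 21 hCG-only, 10 PMSG-only, 9 WT-only and 0 KO-only. With 55654 peaks per list by fold they became 13 hCG-only, 1 WT-only and 12 KO-only, and by q-value, an alternative chosen after seeing the data, 1 WT-only and 1 KO-only; fewer peaks enter both. With the 20000 peaks of highest fold they were 4 hCG-only, 3 PMSG-only and 1 WT-only. PMSG-only fell to 6 at -log10 q of 20 or more and to 6 in the gene bodies, WT-only rose to 15 with 100 kb flanks, and 1 region was KO-only when peaks had to cover 50% of a region. Leaving out 1 library gave 21 to 23 hCG-only, 11 to 12 PMSG-only, 14 to 30 WT-only and 0 to 1 KO-only regions. A call on fewer libraries asks less, so these counts could only stay or rise. They cannot show whether a count rests on 1 library.

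Differences in covered length (bp per Mb, hCG minus PMSG) turned to -29.8 at Runx1, -75.8 at Runx2 and 105 at Cbfb with 20000 peaks, where Runx3 gave 0. Runx3 also turned to -9.10 in the gene body and -1.37 with 20 kb flanks, and ranged from -2.55 (without hCG replicate 2) to 6.64 on leaving out a library. WT minus KO turned at Runx2 to -202 (same number by fold), -22.4 (20000 peaks) and -27.1 (same number by q-value), and ranged from -4.27 to 79.1 on leaving out a library. At Runx3 it turned to -2.16 (same number by fold) and -4.55 (100 kb flanks) and was 0 with 20000 peaks, and at Cbfb it turned to 1.40 and 7.09 (same number by fold and by q-value). Unscaled, it was 2236 bp at Runx1 and 1237 bp at Cbfb. The cause was not tested.

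With the replicate block every covered-length difference was the same, such as 126 bp per Mb for Runx2 (hCG minus PMSG), at p = 0.5, the smallest that exact permutation within 2 pairs gives, or 1.0, and no call changed. Start regions ranked by q-value moved in 18 of 18 comparisons, and a margin of 1 kb changed no count of starts in peaks. Peak lists carry no read counts, so a missing peak may lie just under the caller's threshold.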
